A study of Sus scrofa with 12 samples.

Results

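Macrophage markers were followed in the skeletal muscle of newborn pigs through the first 3 weeks of life. The list held LAPTM5, MRC1, AIF1, CD14, CD163, CD68, CSF1R and TYROBP, and its members were every probe set that the array's gene table pairs with one of those symbols. Of the 8 genes, 6 had a probe set, with 9 probe sets in all among 24123 on the array. CD68 and CSF1R carry no symbol in the table used here and were not analysed here. Among 6765 genes with a symbol, the 6 markers were thus a small set, and 3 of them (LAPTM5, CD14 and CD163) were read by 2 probe sets each.

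The samples were whole skeletal muscle of pigs (Sus scrofa) at 4 ages, on 12 Affymetrix porcine arrays with 3 biological replicates per age. The ages were the first 24 hours of life (day 0), then day 7, day 14 and day 21. The labels give no treatment, breed, sex or muscle, and they do not say how the animals of a replicate were chosen or whether any were pooled. Each transcript is read on such an array by a set of short probes, and the deposited value is a linear signal, for which the submitters' processing notes name MAS5. A change is given as the later minus the earlier mean log2 signal ± SE (n = 3 arrays per age). The SE is limma's, from a variance estimated over all 12 arrays. The adjusted p of a change is also limma's, corrected by the Benjamini-Hochberg method across the 14399 probe sets tested. A call is an adjusted p under 0.05, and the p-values measure only the spread between these samples.

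Macrophages of skeletal muscle lie in the connective tissue between the fibres, where they clear debris and take up haemoglobin, and they are known in mouse for their part in growth and repair. Some settle before birth and others derive from blood monocytes, and the markers differ in what they report. MRC1 and CD163 are scavenger receptors of resident and anti-inflammatory macrophages, CD14 senses bacterial lipopolysaccharide, TYROBP carries signals of activating receptors, AIF1 is a calcium-binding protein that bundles actin, and LAPTM5 is a lysosomal membrane protein of blood cells at large.

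Trimmed mean signals were 500.1 on all 12 arrays, and median signals ran from 145.4 to 171.7. Of 15 listed skeletal muscle genes, 12 were on the array and all 12 were bright enough to be tested. Their summed signals ran from 418414 to 543424 at day 21, against 275131 to 384684 at day 0. The day 0 arrays stood apart from the others: pairs of a day 0 array with a later one had a median correlation of 0.888, against 0.918 between day 0 arrays and 0.945 between arrays of the same later age. Hybridization control signals, added in fixed amount, averaged 12.55 ± 0.13 on the log2 scale in the later arrays (SD, n = 9) and 12.20 ± 0.09 at day 0 (SD, n = 3; exact two-sided permutation p = 0.00455, adjusted 0.00909 over 2 measures). In the poly-A RNAs spiked in before labelling, probe sets at the 3' end were brighter than those at the 5' end, and this log2 ratio, which grows when labelling stops early, averaged 0.51 ± 0.10 in the later arrays and 0.98 ± 0.53 at day 0 (exact two-sided permutation p = 0.00909), with 1.59 in day 0 replicate 2. The part of these measures in the results was examined only by the fits named beside them.

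Of the 9 marker probe sets, 7 (all 6 genes) lay above the filter, which left out the dimmest 40% of probe sets with a limit at a mean signal of 90.3. LAPTM5 rose in the first week, and its mean signals at days 7, 14 and 21 were 494.9, 502.8 and 533.8. None of the other 5 genes passed the test in any comparison. Between day 7 and day 0, 1 of the 7 probe sets was called, where 9.4% of all tested probe sets were called, 5.76% as higher (829 probe sets) and 3.64% as lower (524). This split turned to 604 higher and 736 lower with median centring, and to 358 and 1636 with scaling on the hybridization controls. Between day 21 and day 0 it was again 1 of 7, where 11.5% were called, 6.61% as higher (952 probe sets) and 4.9% as lower (705). Here median centring gave 739 higher and 1032 lower and scaling on the hybridization controls 397 and 2486, with LAPTM5 still called higher in both. In the test of any change with age, 1 of 7 was called, where 8.88% of all were. A count of 1 in 7 is near these shares and is not a result about the set. The median change of the 7 probe sets was 0.36 between day 7 and day 0, and −0.15 between day 21 and day 0, with 0.00 and 0.02 over all tested probe sets. At day 7, 5 of the 7 had a higher mean log2 signal than at day 0, as did 50% of all tested probe sets. At day 21 it was 3 of 7, with 51.5% of all.

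**Figure D1:**
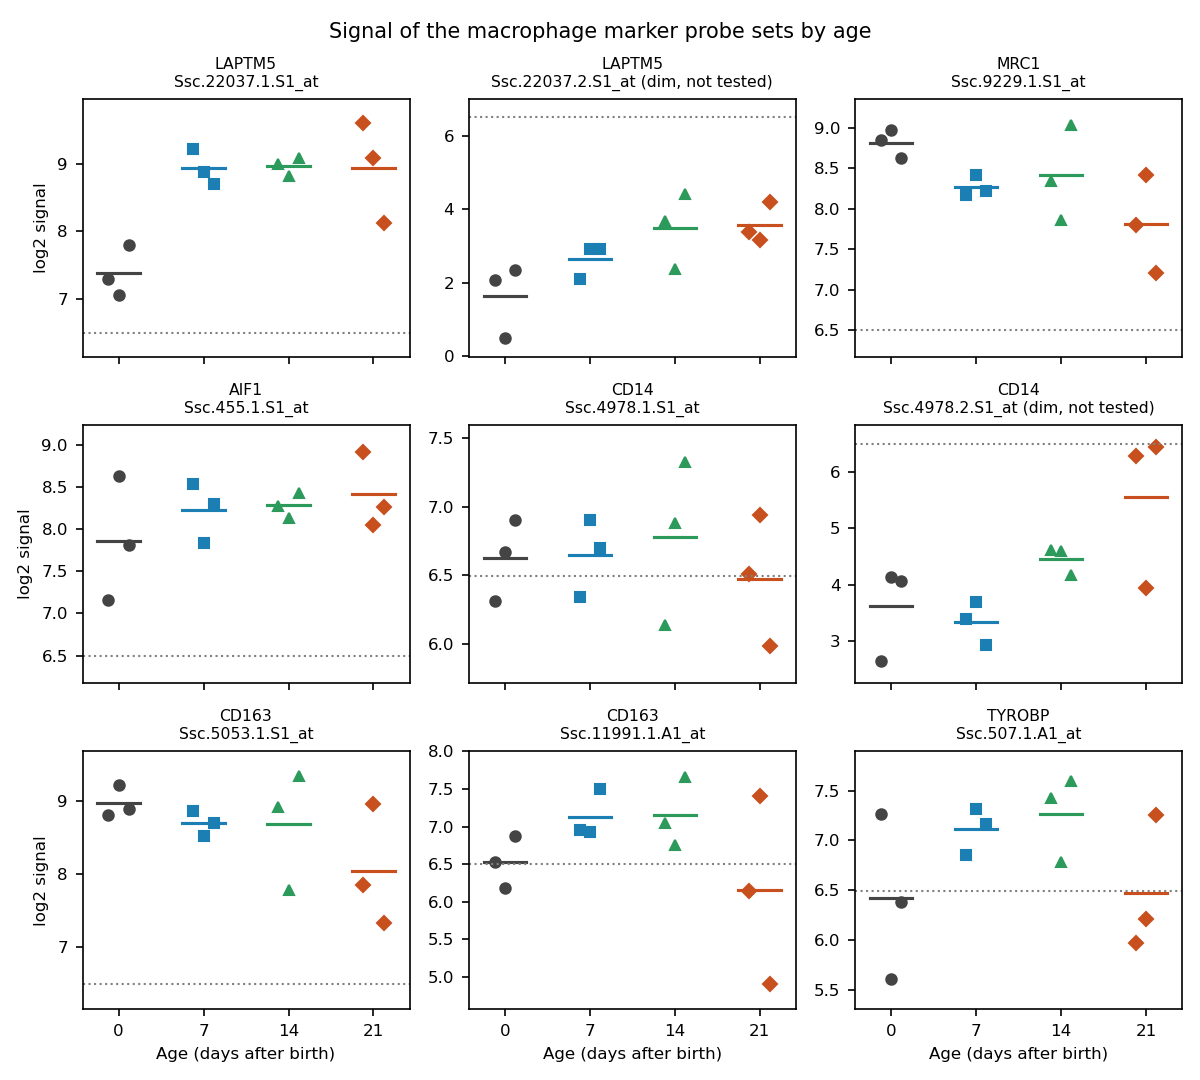
Signal (log2 scale) of the 9 macrophage marker probe sets in each of the 12 arrays against age in days, with bars at the mean of 3 arrays and a dotted line at the filter limit. The brighter LAPTM5 probe set is at 278.0 or more in all 9 later arrays and at 132.8 to 223.0 at day 0, while the ages of AIF1 and of the brighter CD14 probe set overlap.

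LAPTM5 is a lysosomal transmembrane protein of leukocytes that in mouse lowers the amount of antigen receptors on lymphocytes, and it is also used as a macrophage marker. Its brighter probe set had signals of 157.5, 132.8 and 223.0 at day 0, 597.9, 472.3 and 414.5 at day 7, 512.3, 453.2 and 542.9 at day 14, and 780.0, 543.3 and 278.0 at day 21. Every later array was above every day 0 array, a separation in either direction that 14.6% of all tested probe sets showed. Day 21 was the widest age, with its highest array 2.81 times its lowest, against 1.20 times at day 14.

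At day 7 LAPTM5 averaged 494.9 ± 93.8, against 171.1 ± 46.6 at day 0 (SD, n = 3 each). The rise of 1.55 ± 0.32 on the log2 scale, or 2.93-fold, had an adjusted p of 0.0127 and a 95% interval of 0.85 to 2.25. At day 21 the mean was 533.8 ± 251.1, and the rise against day 0 was again 1.55 ± 0.32 (adjusted p = 0.00944). Both comparisons share the day 0 arrays. Against the age a week before, the difference was 0.04 at day 14 and −0.03 at day 21, so the measured rise lay in the first week. The test of any change with age gave an adjusted p of 0.0155. In whole tissue, more cells of a type and more RNA per cell cannot be told apart.

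With the poly-A ratio as a covariate, the LAPTM5 rise was 1.16 at day 7 (adjusted p = 0.176) and 1.29 at day 21 (adjusted p = 0.055), so both calls were lost. Without day 7 replicate 1, its day 7 rise was 1.40 (adjusted p = 0.0571). The test of any change with age lost its call without day 0 replicate 1 (0.0586) or replicate 2 (0.0842). The second LAPTM5 probe set was too dim to be tested, with a signal of 9.0 to 18.3 at day 21, against 1.4 to 5.1 at day 0. It did not overlap between these ages, and 29.1% of all tested probe sets were also without overlap there. At day 7, with 4.3 to 7.6, it overlapped day 0. Fitted without the filter, its adjusted p against day 0 was 0.606 at day 7 and 0.237 at day 21. Its day 21 side was that of the brighter probe set. As it was under the filter limit in all 12 arrays, it cannot serve as a second measure of the rise.

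**Figure D2:**
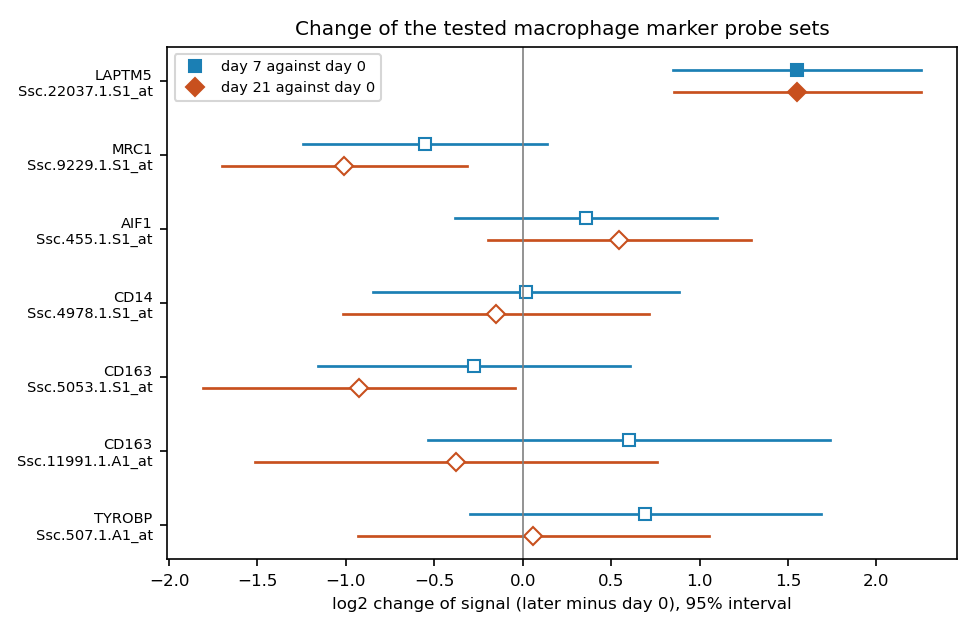
Log2 change (x axis) of the 7 tested marker probe sets from day 0 to day 7 (squares) and to day 21 (diamonds), with 95% intervals over 3 arrays per age. Filled symbols passed the test, which only LAPTM5 did (1.55 in both), and the day 21 intervals of MRC1 (−1.70 to −0.32) and of one CD163 probe set (−1.81 to −0.05) lie below 0.

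Genes of the lysosome showed no common direction beside LAPTM5. Of 15 listed lysosome genes tested, 7 were higher and 8 lower at day 21 than at day 0, with 2 called higher and 1 lower, and their median change was −0.06. Over all tested probe sets, 51.5% were higher, 6.61% were called higher and 4.9% called lower. Scaled on the hybridization controls, 3 of the 15 were higher, with 0 called higher and 4 lower. CTSS, a cathepsin that antigen-presenting cells use to process class II peptides, averaged 1265.9 ± 584.8 at day 21, against 546.5 ± 165.3 at day 0 (change 1.16 ± 0.31, adjusted p = 0.0297). CTSC, the cathepsin that activates granule proteases, averaged 1699.5 ± 441.0, against 897.4 ± 223.6 (0.91 ± 0.24, adjusted p = 0.0268). ATP6V0D1, a subunit of the proton pump of every cell's lysosomes, was lower at 1268.3 ± 205.5, against 1835.2 ± 116.1 (−0.54 ± 0.16, adjusted p = 0.0438).

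These lysosome calls were fragile. For CTSS, omitting day 0 replicate 1 gave 0.94 (adjusted p = 0.0934) and omitting day 21 replicate 1 gave 0.81 (adjusted p = 0.119), both short of a call. CTSC lost its call without day 0 replicate 2 or 3, or without day 21 replicate 1 or 2, with adjusted p up to 0.104. For ATP6V0D1, 17 of 23 alternatives lost the call at day 21, and among the fits that left out 1 array it was kept only without day 21 replicate 1. LAMP1, a lysosomal membrane protein of all cells, lay at −0.23 ± 0.14 at day 21 (adjusted p = 0.308).

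MRC1, the mannose receptor that takes up glycoproteins, lay on the other side. Its probe set had signals of 461.9, 503.1 and 395.3 at day 0, 287.3, 341.1 and 297.8 at day 7, 324.8, 233.1 and 523.7 at day 14, and 223.1, 341.9 and 148.0 at day 21. All 3 day 7 and all 3 day 21 arrays were below every day 0 array, while at day 14 replicate 3 was above them. Such separation from day 0 was shown by 3 of the 7 marker probe sets at day 7, where 28.5% of all tested probe sets showed it. At day 21 it was 2 of the 7, where 29.1% of all did.

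The day 21 difference of MRC1 was −1.01 ± 0.32 with a 95% interval of −1.70 to −0.32, a 0.497-fold level, and an adjusted p of 0.0584 that missed the threshold. At day 7 it was −0.55 ± 0.32 (adjusted p = 0.305). Over all alternatives the day 21 value ran from −1.39 to −0.71, and its adjusted p from 0.0213 to 0.213. It passed without day 21 replicate 2 (−1.31, adjusted p = 0.0249), without day 14 replicate 2 (0.0465) or replicate 3 (0.0416), with a stricter filter (0.0474), with median centring (0.0383) and with scaling on the hybridization controls (0.0213).

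CD163 takes up complexes of haemoglobin and haptoglobin. Its brighter probe set had 448.0, 596.6 and 476.6 at day 0, 468.5, 369.1 and 416.1 at day 7, 486.2, 220.7 and 649.0 at day 14, and 231.3, 499.7 and 160.6 at day 21. Its day 21 difference from day 0 was −0.93 ± 0.41 (95% interval −1.81 to −0.05, adjusted p = 0.161), and the ages overlapped through day 21 replicate 2. Without that array the difference was −1.38 with an adjusted p of 0.0389. At day 7 the difference was −0.27 (adjusted p = 0.724).

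The other CD163 probe set had 92.3, 72.4 and 117.1 at day 0, 123.7, 121.5 and 181.0 at day 7, 131.9, 107.9 and 202.9 at day 14, and 70.4, 169.3 and 30 at day 21. At day 7 all of its arrays were above day 0 (0.60, adjusted p = 0.514), opposite to the brighter probe set, and the day 21 difference was −0.38 ± 0.53 (adjusted p = 0.691). Without day 21 replicate 3 that difference turned to 0.24. Its lowest array, day 21 replicate 3, was also the lowest for MRC1 and for the brighter CD163 probe set.

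Both receptors varied together between arrays. Over 12 arrays the log2 signals of MRC1 and the brighter CD163 probe set had a Pearson r of 0.91 and a Spearman correlation of 0.83, and r was 0.81 without the 2 arrays farthest from the MRC1 median. Among the 9 later arrays r was 0.93, and after subtraction of each age's mean it was 0.90. The dimmer CD163 probe set had an r of 0.58 with MRC1 over all arrays, of −0.13 without the same 2 arrays, and of 0.90 over the 9 later ones, so the relation with this probe set rests on few arrays. In 2 of the 4 ages, days 14 and 21, the replicates had the same order in all 3 probe sets. Values of one array share its library and its scaling, and correlations are given as descriptions.

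**Figure D3:**
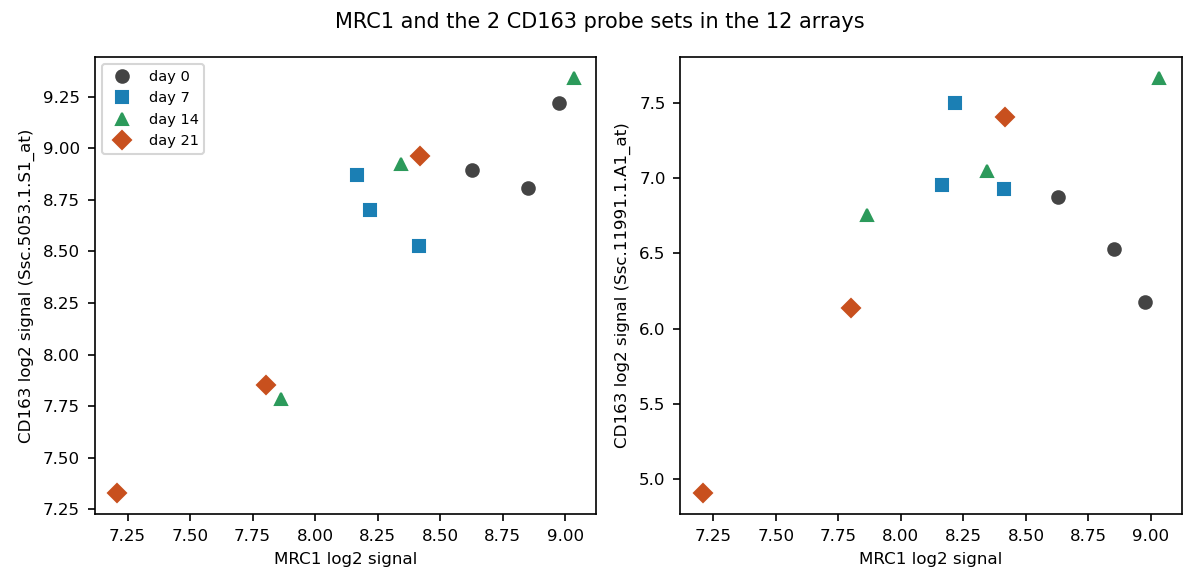
Log2 signal of each CD163 probe set (y axes, the brighter one left and the dimmer one right) against that of MRC1 (x axis) in the 12 arrays, with symbols by age. The points of the left panel run along a line (r = 0.91), with day 21 replicate 3 at the low end of both panels.

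Among 5295 other genes, MRC1 was the gene most like CD163, and CD163 was second for MRC1 after MAOA (r = 0.92), the mitochondrial enzyme that breaks down serotonin and noradrenaline. For MRC1, 90% of genes lay between r values of −0.65 and 0.61. GADD45G, a stress-induced growth-arrest gene, had an r of 0.91 to MRC1 and a day 21 difference from day 0 of −1.39. As it was chosen for its likeness to MRC1 over these same arrays, its direction follows from the choice. TMEM167B (0.88) and ALG5 (0.87), which adds glucose to the sugar chains made for glycoproteins, completed the MRC1 list. TMEM87A (0.88) and PPP1R12A (0.87), a subunit of myosin phosphatase, stood on that of CD163 beside MAOA (0.90) and GADD45G (0.87).

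LAPTM5 had other companions. CASP8, a protease that starts cell death (r = 0.96), OXCT1, which lets tissues burn ketone bodies (0.93), OSTF1 (0.93), IGFBP5 (0.92), which binds insulin-like growth factors, and MDK (0.92), a growth factor of development, were the most like it over the 12 arrays. As they were chosen for their likeness to LAPTM5 over these same arrays, their direction follows from the choice. Their day 21 differences from day 0 were 1.40 for CASP8, 2.13 for OXCT1, 0.53 for OSTF1, 0.77 for IGFBP5 and 2.16 for MDK. LAPTM5 and MRC1 had an r of −0.37 over all arrays, 0.44 over the 9 later ones and 0.36 after subtraction of age means.

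The within-array ratio of LAPTM5 to MRC1 does not depend on a factor applied to a whole array, and it was chosen after its values were seen. On the log2 scale it averaged −1.43 ± 0.56 at day 0, 0.67 ± 0.34 at day 7, 0.56 ± 0.46 at day 14 and 1.13 ± 0.60 at day 21 (SD, n = 3 each). The lowest of the 9 later arrays stood at 0.05 and the highest day 0 array at −0.83. Because the probe sets differ in brightness, only its differences between arrays can be read: the mean was 2.10 higher at day 7 and 2.56 higher at day 21 than at day 0.

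**Figure D4:**
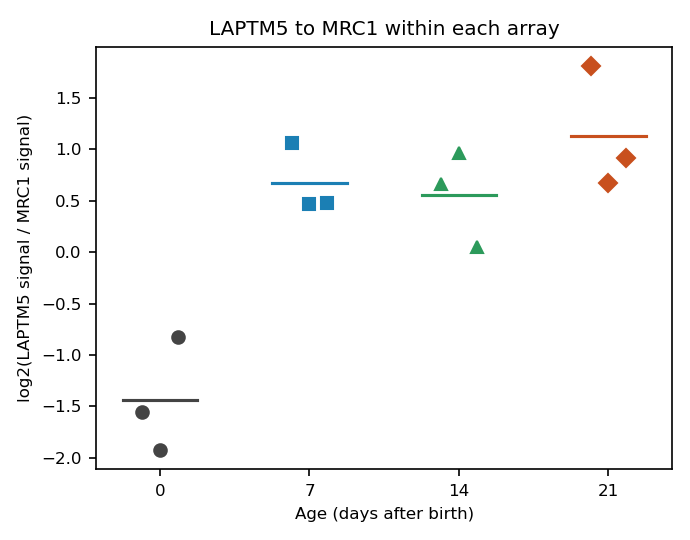
Log2 ratio of the LAPTM5 to the MRC1 signal within each array (y axis) against age in days, with points for the 12 arrays and bars for the mean of 3. The 9 later arrays (0.05 to 1.81) lie above the 3 day 0 arrays (−1.92 to −0.83).

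Genes of haem and iron handling, the task of CD163, gave calls that depended on the scaling. Of 5 tested genes that handle haem and iron, 4 were higher at day 21 than at day 0, and 2 were called. Over all tested probe sets, 51.5% were higher and 11.5% were called. FTH1, the ferritin heavy chain, averaged 42834.9 ± 2887.8 at day 21, against 30831.1 ± 3406.0 at day 0 (0.48 ± 0.12, adjusted p = 0.0192). FTL, the ferritin light chain, averaged 12621.3 ± 1198.8, against 7512.0 ± 2188.1 (0.79 ± 0.21, adjusted p = 0.0275). Neither was called under any of the 3 other scalings. FTH1 had 0.20 with quantile normalization (adjusted p = 0.0877), 0.37 with median centring (0.057) and 0.10 with scaling on the hybridization controls (0.505). In the same order FTL had 0.67 (0.0542), 0.68 (0.0645) and 0.41 (0.195). FTH1 also lost its call without day 0 replicate 1, day 21 replicate 2 or day 21 replicate 3 (adjusted p up to 0.0772), and FTL without day 0 replicate 3, day 21 replicate 1 or day 21 replicate 3 (up to 0.101). Most cell types make ferritin.

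CD14, which binds lipopolysaccharide and hands it to TLR4, differed little between ages. Its brighter probe set had 79.5, 101.8 and 119.6 at day 0, 81.1, 119.8 and 103.7 at day 7, 70.3, 117.8 and 160.5 at day 14, and 90.9, 122.6 and 63.2 at day 21. All ages overlapped, with a difference of 0.02 at day 7 (adjusted p = 0.984) and of −0.15 at day 21 (adjusted p = 0.844) from day 0. The second CD14 probe set, too dim to be tested, had 77.9, 15.4 and 86.7 at day 21, against 6.3, 17.7 and 16.7 at day 0. Of 5 tested CD14 partners, limma called none at day 21 (0 with an unadjusted p under 0.05), and 1 was higher. Over all tested probe sets, 11.5% were called and 51.5% were higher. The partner with the lowest p in the test of any change, IRAK1, a kinase downstream of Toll-like receptors, lay at −0.16 ± 0.21 (adjusted p = 0.667). BCOR, a transcriptional corepressor (r = 0.84), PAPD4 (0.77), TSPAN7 (0.73), BRCC3 (0.71) and CST3 (0.71), which inhibits cathepsins, were the genes most like CD14 over the 12 arrays.

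TYROBP, the adaptor that passes on signals of receptors such as TREM2, had signals of 154.0, 48.7 and 83.5 at day 0, 115.7, 159.7 and 143.3 at day 7, 172.3, 110.2 and 193.5 at day 14, and 62.7, 74.0 and 152.4 at day 21. It overlapped between all ages, and day 0 overlapped days 7 and 14 only through its replicate 1. The difference was 0.69 ± 0.46 at day 7 (adjusted p = 0.376) and 0.06 at day 21 (adjusted p = 0.953) from day 0. Only 2 of 14 listed TYROBP receptors and kinases were tested and limma called neither (2 had an unadjusted p under 0.05 at day 7 and 0 at day 21). LYN, a Src-family kinase of leukocytes, was 0.75 ± 0.28 higher at day 7 without overlap (adjusted p = 0.108) and 0.11 ± 0.28 at day 21 (adjusted p = 0.831). Between day 7 and day 0, 28.5% of all tested probe sets were also without overlap. PSORS1C2 (0.86), CHD7, a chromatin remodeller (0.85), VEGFA, the vessel growth factor (0.83), RBM23 (0.82) and LOC100739425 (0.82) had the highest r with TYROBP.

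AIF1 had 142.9, 397.0 and 224.3 at day 0, 372.3, 228.5 and 315.3 at day 7, 310.0, 282.0 and 346.0 at day 14, and 483.5, 265.9 and 308.8 at day 21. Its day 0 arrays were the widest, with the highest 2.78 times the lowest, and overlapped each later age. The differences of 0.36 at day 7 (adjusted p = 0.555) and 0.55 ± 0.34 at day 21 (adjusted p = 0.328) did not pass. CXHXorf38 (0.92), OST4 (0.88), DCTN2, a subunit of dynactin (0.84), XRCC6, which joins broken DNA ends (0.83), and IL16, a chemoattractant of CD4+ cells (0.82), had the highest r with AIF1.

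After the first week no marker was called. Between day 14 and day 7, 0 of 7 marker probe sets passed in limma, where 0.00694% of all tested did and 857 had an unadjusted p under 0.05. Between day 21 and day 14 it was 0 of 7, where 0% of all passed and 436 had an unadjusted p under 0.05. None of the 7 tested marker probe sets was without overlap in either week, where 14.1% and 8.44% of all tested were. The dimmer CD14 probe set, which was not tested, did not overlap between day 14 (18.0 to 24.4) and day 7 (7.7 to 13.0). At day 14, 6 of the 7 had a higher mean log2 signal than at day 7, where 51.6% of all did. At day 21, 1 of the 7 had a higher mean log2 signal than at day 14, where 51.3% of all did. LAPTM5 was lower on this scale, though its mean linear signal was higher (533.8 against 502.8). The median of this last step was −0.60 for the markers and 0.01 for all tested probe sets, and the widest differences were −1.0 for the dimmer CD163 probe set, −0.79 for TYROBP and −0.64 for the brighter CD163 probe set.

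A further 31 macrophage genes were listed, of which 19 were on the array and 9 were tested. None of the 9 was called in any comparison by limma (2 had an unadjusted p under 0.05 at day 21), 5 were higher and 4 lower at day 21 than at day 0, and the median was 0.08 (−0.30 when scaled on the hybridization controls). At day 21, 11.5% of all tested probe sets were called and 51.5% were higher. C1QC, a chain of the first complement component that resident macrophages make, averaged 1482.3 ± 579.6 at day 21, against 827.3 ± 267.4 at day 0 (0.81 ± 0.39, adjusted p = 0.198), and had its highest mean, 2150.0 ± 842.7, at day 14. The next genes were chosen after their values were seen. FOLR2, a folate receptor of resident macrophages, had 1054.5, 1316.0 and 801.4 at day 21, against 356.0, 352.7 and 993.1 at day 0 (1.05 ± 0.34, adjusted p = 0.0617). LYVE1, a hyaluronan receptor of vessel-associated macrophages and lymphatic vessels, lay at −0.71 ± 0.34 (adjusted p = 0.199). The transcription factor IRF8 lay at 1.15 ± 0.39 (adjusted p = 0.0757). Its mean signal was 79.2 at day 0, under the filter limit of 90.3, and 168.5 at day 21.

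Over the 12 arrays, SIRPA, the receptor that reads the signal CD47 gives against being eaten, had an r of 0.81 with MRC1 and of 0.81 with CD163. With LAPTM5 it had −0.06, but 0.67 after subtraction of age means, where it kept 0.76 with MRC1. IRF8, a transcription factor of the monocyte lineage, had an r of 0.84 with LAPTM5 (0.71 after subtraction of age means) and of −0.46 with MRC1 (0.06 after it). C1QC had 0.81 with LAPTM5 (0.73) and 0.02 with MRC1 (0.56). With MRC1, FOLR2 had −0.37 (0.14) and LYVE1 had 0.70 (0.56). None of these 3 pairs with a negative value over all arrays had one after subtraction of age means. Muscle and vessel genes also reached such values with LAPTM5 over all arrays, such as MYH2 with 0.87 and CDH5 with 0.79. After subtraction of age means MYH2 had 0.20 and CDH5 −0.0035. ENG, another vessel gene, had −0.80 with LAPTM5, and −0.44 after subtraction.

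Of 11 listed ligands, growth factors and receptors that act on macrophages, 4 were tested: IL34, TGFB1 and the receptors IL4R and IL13RA1. None was called by limma (1 had an unadjusted p under 0.05 at day 21). At day 21, 2 of the 4 were higher than at day 0, where 51.5% of all tested probe sets were. The median change of the 4 genes was −0.01. IL34, a ligand of CSF1R, averaged 220.3 ± 79.8 at day 21, against 116.9 ± 36.2 at day 0, without overlap (0.91 ± 0.33, adjusted p = 0.0901). Between these ages 29.1% of all tested probe sets were also without overlap. CYBA, the small subunit of the phagocyte oxidase, lay at 0.33 ± 0.24 (adjusted p = 0.407), and neither of the 2 tested oxidase genes was called by limma (0 with an unadjusted p under 0.05).

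**Figure D5:**
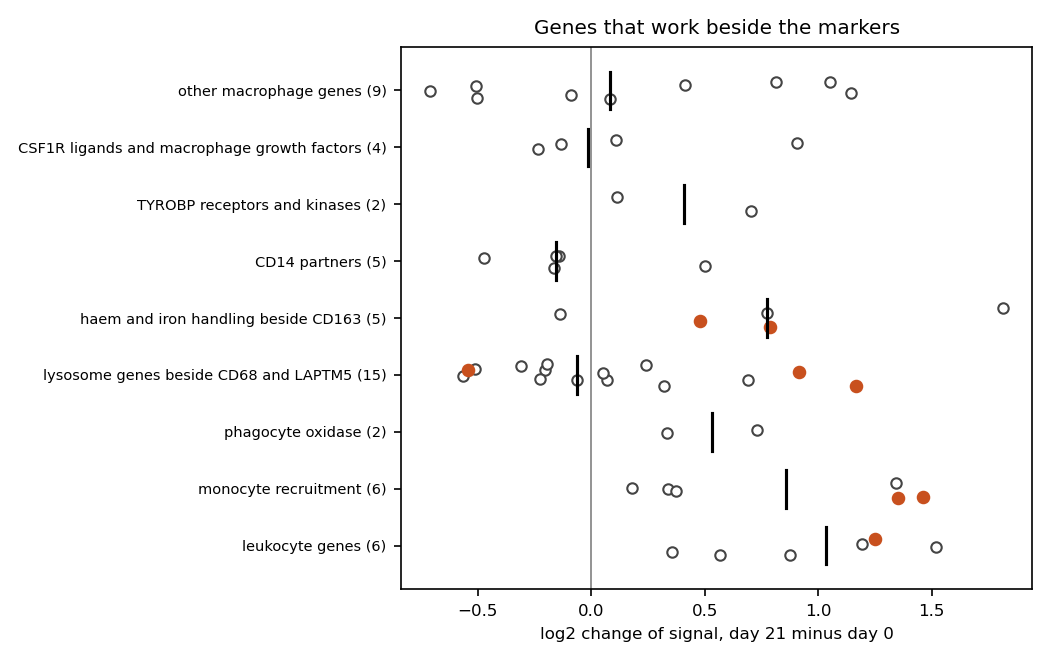
Log2 change between day 21 and day 0 (x axis) of each tested gene of 9 lists that work beside the markers, with the number of tested genes in parentheses and the list's median as a bar. Filled points passed the test: 2 of 6 recruitment genes, 1 of 6 leukocyte genes, 2 of 5 haem and iron genes, 3 of 15 lysosome genes and none in the other 5 lists. Over all tested probe sets 11.5% passed.

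Among recruitment genes, CCL4 and CXCR4 rose both at day 7 and at day 21, and the other 4 tested were called at neither age. Of the 6 tested recruitment genes, all were higher at day 7 and at day 21 than at day 0, and 2 were called both times. Over all tested probe sets, 50% were higher and 9.4% called at day 7, and 51.5% higher and 11.5% called at day 21. Scaled on the hybridization controls, 3 of the 6 were higher at day 21, and 2 were still called. CCL4, a chemokine that attracts monocytes and T cells, averaged 466.9 ± 144.3 at day 7 and 370.3 at day 21, against 133.3 ± 8.1 at day 0, and rose by 1.77 ± 0.23 (adjusted p = 0.00134) and 1.46 ± 0.23 (adjusted p = 0.00258). CXCR4, the receptor for CXCL12 on leukocytes and precursors, rose by 1.34 ± 0.26 (adjusted p = 0.00955) at day 7 and by 1.35 ± 0.26 (adjusted p = 0.00682) at day 21. Both kept their day 21 calls in all 23 alternatives, and CXCR4 at day 7 lost its call only with the poly-A covariate (1.53, adjusted p = 0.0538).

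Leukocyte genes, listed for white blood cells at large, gave 1 call at day 21 and 0 at day 7 in limma (3 with an unadjusted p under 0.05 each time). The shares called over all tested probe sets were 11.5% and 9.4%. All 6 tested leukocyte genes were higher at day 21 than at day 0, where 51.5% of all tested probe sets were, with a median of 1.03. Their summed signals, over 8 genes on the array, ran from 2939 to 4362 at day 21, against 1256 to 2327 at day 0. Scaled on the hybridization controls, 5 of the 6 were higher, with a median of 0.65 and 0 called. CD74, the chaperone of class II molecules, rose by 1.25 ± 0.33 (adjusted p = 0.0273). With a mean of 2128.0 at day 21, against 941.2 at day 0, CD74 was the brightest gene in those sums and weighed most in them. Without day 0 replicate 1 or 2, or without day 21 replicate 1 or 3, CD74 lost its call (adjusted p from 0.0578 to 0.106). ARHGDIB lay at 0.87 ± 0.27 (adjusted p = 0.0542), LCP1, the leukocyte actin bundler L-plastin, at 1.52 ± 0.47 (0.0534), and CORO1A at 1.19 ± 0.72 (0.306). LCP1 averaged 51.9 at day 0, under the filter limit of 90.3, and 133.6 at day 21. ARHGDIB passed without day 0 replicate 2 (0.0483) or day 14 replicate 3 (0.0416), and LCP1 without day 0 replicate 3 (0.0275). PTPRC, the common leukocyte antigen CD45, stayed below the filter. The part of these cells in the rise of LAPTM5 was not tested.

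Markers of other blood cells were mostly dim. The T cell and natural killer list had 12 of 19 genes on the array and 2 tested. CD3D, CD3E, CD3G, CD4 and CD8A were all below the filter, with no signal above 89.6 in any array. Also below it were CD247, CD2, CD8B, LCK and PRF1, with highest signals of 145.2, 120.8, 99.9, 92.6 and 64.3. The list's summed signals ran from 652 to 1413 at day 21, against 243 to 500 at day 0. Its 2 tested genes, CCL5 and GNLY, weighed most in these sums, with mean signals of 164.2 and 178.9 over all arrays. The next was CD247 with 75.6. CCL5, a chemokine of T and natural killer cells, rose by 3.33 ± 0.46 between day 21 and day 0 (adjusted p = 0.00136) and by 2.03 ± 0.46 between day 7 and day 0 (adjusted p = 0.0182). Its day 0 signals, 16.5 to 34.7, lay under the filter limit of 90.3, so CCL5 passed the filter only through the later ages. The size of its rise is therefore uncertain, and over all alternatives the day 21 change ran from 2.36 to 3.80. Leaving out day 0 replicate 2 or day 7 replicate 2 took the CCL5 day 7 call away (0.0584 and 0.0762), as did the poly-A covariate (1.52, adjusted p = 0.212) and a fit of only the 6 arrays compared (0.0966). With an offset added before the logarithm, the CCL5 day 7 change was 1.26 and still called. KIT, the stem cell factor receptor of mast cells and precursors, rose by 1.58 ± 0.38 at day 21 (adjusted p = 0.019). On leaving out each array the KIT change was 1.34 to 1.95. Its mean signal was 62.9 at day 0, also under that filter limit, and 179.3 at day 21. The KIT call was lost when day 0 replicate 1, day 0 replicate 2, day 21 replicate 1 or day 21 replicate 3 was left out (0.0502 to 0.0797), with the poly-A covariate (0.0874) and with only the 6 arrays compared (0.0788). The part of these cells in the results of the markers was not tested.

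S100A9, a calcium-binding protein of neutrophils, was the only 1 of 6 neutrophil genes tested, and averaged 87.9 at day 21, against 187.6 at day 0 (−0.91 ± 1.16, adjusted p = 0.657). Of the 2 tested genes of the B cell list, BLNK, an adaptor of the antigen receptor, lay at 0.80 ± 0.48 (adjusted p = 0.306). The other, JCHAIN, lay on the opposite side at −0.69 ± 0.47 (adjusted p = 0.371). CD83, a marker of mature dendritic cells, lay at 0.10 ± 0.58 (adjusted p = 0.935). None of these 3 lists held a gene called by limma in any comparison, and 0 of their 4 tested genes had an unadjusted p under 0.05 at day 21.

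Vessel, red cell and muscle genes gave the setting in which the markers were measured. Of 10 tested endothelial genes, 3 were called higher (1 when scaled on the hybridization controls) and 1 lower at day 21 than at day 0, with rises of CDH5, the cadherin of vessel walls (1.22 ± 0.23, adjusted p = 0.00598), and CLDN5, a tight-junction protein (1.10 ± 0.26, adjusted p = 0.0171). Over all tested probe sets, 6.61% were called higher and 4.9% lower. ENG, the endothelial receptor endoglin, fell by 1.06 (adjusted p = 0.00555), while PECAM1, found on vessels and on macrophages, lay at 0.51 ± 0.16 (adjusted p = 0.0588, and 0.0359 without day 21 replicate 2). At day 7 PECAM1 rose by 0.88 ± 0.16 (adjusted p = 0.00674), and this call was kept in all 23 alternatives. CLDN5 lost its call without day 21 replicate 1 (0.0741) or replicate 3 (0.0676). Of 3 red cell genes, ALAS2, which starts haem synthesis, rose by 1.40 ± 0.27 (adjusted p = 0.00656), and HBB, the beta chain of haemoglobin that CD163 clears, fell by 0.84 (adjusted p = 0.0349).

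HBB lost that call without day 0 replicate 1 (−0.54, adjusted p = 0.0858) or any one of the day 21 arrays (adjusted p up to 0.111). Fibroblast and adipocyte lists, with 7 and 4 tested genes, held no call in any comparison by limma (2 and 0 with an unadjusted p under 0.05 at day 21). At day 21, 5 of the 7 fibroblast genes and 2 of the 4 adipocyte genes were higher than at day 0, where 51.5% of all tested probe sets were. FAP lay at 0.93 ± 0.35 (adjusted p = 0.104), and was called without day 0 replicate 3 (1.3, adjusted p = 0.0225). POSTN, another fibroblast gene, lay at −1.18 ± 0.54 (adjusted p = 0.179). LPL, of the adipocyte list, lay at −0.35 ± 0.28 (adjusted p = 0.448), and PPARG at 0.87 ± 0.50 (adjusted p = 0.284). Of the 12 muscle genes, 5 were called higher and none lower at day 21 (3 and 1 when scaled on the hybridization controls), among them MYH2, the myosin of fast oxidative fibres (2.74 ± 0.28, adjusted p = 0.000482), and TNNT1, the troponin T of slow fibres (1.37 ± 0.23, adjusted p = 0.00344). The shares over all tested probe sets were 6.61% called higher and 4.9% lower. The summed signal of the 6 marker genes ran from 1111 to 1872 at day 21, against 1444 to 1780 at day 0, and these ranges overlapped.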

How the data were processed

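The authors deposited 1 linear intensity per probe set and array, and the submitters' processing notes name MAS5 as the tool; its version and scaling are not given in the sources used here. Their logarithm to base 2 was analysed without renormalizing. From the 24123 probe sets 124 controls were removed, then the dimmest 40% of the rest by mean log2 signal, leaving 14399 to test. The array's gene table gave the symbols (10099 probe sets with 1 symbol, 198 with several, 13826 with none), and 9989 were matched to current names, which changed 0.

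The model, run in R 4.3.3 with limma 3.58.1, had 1 mean per age, moderated variances (eBayes with a mean-variance trend) and Benjamini-Hochberg adjustment. The fits were tested on simulated data. Of each of 19 other lists up to 4 genes were named, in order of the F test p among those past an adjusted p of 0.05 in any comparison, or else the 1 with the lowest p; the muscle, neutrophil and leukocyte lists were named up to 4 regardless. A gene stood for its brightest probe set, and the 5 genes with the highest Pearson r to each marker were named. The members, lists and tests were chosen with earlier results of these data known. Same-numbered arrays did not deviate together (median correlation −0.02 over 18 pairs). Alternatives were other filters, scalings, an offset, variance models, a poly-A covariate, a replicate block, fewer arrays and a gene's mean. Precision is limited by the number of arrays, and detection calls were not used here. Figures were drawn with matplotlib 3.10.9.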

Additional observations from a re-analysis of the deposited data

How the results depend on the processing

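With 3 arrays per age, and signals scaled to an equal trimmed mean, a change is relative to the bulk of probe sets. Scaling on the hybridization controls moved the median change of all probe sets to −0.31 between day 7 and day 0 and to −0.36 between day 21 and day 0, while LAPTM5 kept its day 21 call. Over 23 alternatives the LAPTM5 change ran from 1.17 to 1.96 at day 21 and from 1.16 to 1.76 at day 7. With the replicate number as a block, LAPTM5 had adjusted p-values of 0.0146 at day 21 and 0.0197 at day 7, and 1447 probe sets were called at day 21; the markers' calls did not differ under this block.

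Marker probe sets called between day 21 and day 0 were 2 with a stricter filter, with median centring and with hybridization scaling, and 0 with the poly-A covariate and with only the 6 arrays compared. In the test of any change with age, 0 were called with hybridization scaling, array weights, the poly-A covariate and genes averaged over their probe sets, and at day 7 it was 0 with the poly-A covariate and the gene mean. On leaving out each array the counts ran from 0 to 1 for any change, 0 to 1 at day 7 and 1 to 3 at day 21. Over all probe sets, those called for any change numbered 2105 with hybridization scaling, 818 with no variance trend, 761 with array weights and 215 with the poly-A covariate. At day 7 they numbered 222 with that covariate and 477 when fitting 6 arrays. At day 21 it was 2883 with hybridization scaling (397 higher and 2486 lower), 948 with that covariate and 590 when fitting 6 arrays. Between day 14 and day 7 it was 2 with quantile normalization, 2 with hybridization scaling, 3 with 6 arrays and 0 without the trend or with the poly-A covariate. On leaving out each array the calls ran from 566 to 1387 for any change, 493 to 1669 at day 7, 0 to 3 between days 14 and 7, and 789 to 2023 at day 21. The causes were not tested.

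Differences near 0 turned sign. CD14 at day 7 gave −0.10 with quantile normalization, −0.077 with median centring, −0.29 with hybridization scaling and −0.052 with the poly-A covariate. In the same order TYROBP at day 21 gave −0.12, −0.047, −0.32 and −0.39, and CD83 gave −0.0077, −0.0039, −0.28 and −0.67. With hybridization scaling LYN gave −0.27 and CYBA −0.046 at day 21. Between days 14 and 7 that scaling gave −0.024 for LAPTM5, −0.0021 for AIF1 and −0.031 for the dimmer CD163 probe set, which had −0.0081 with quantile normalization. AIF1 there gave −0.00049 with the poly-A covariate, and the brighter CD163 probe set 0.031 with array weights. Between days 21 and 14 the poly-A covariate gave 0.057 for LAPTM5 and −0.017 for AIF1.
On leaving out each array, day 21 against day 0 ran from −0.38 to 0.094 for CD14, −0.35 to 0.48 for TYROBP, −1.0 to 0.24 for the dimmer CD163 probe set, −0.40 to 0.61 for CD83, −0.12 to 0.34 for LYN and −0.33 to 0.082 for IRAK1. CD14 at day 7 ran from −0.14 to 0.17. Between days 14 and 7 the ranges were −0.084 to 0.18 for LAPTM5, −0.16 to 0.42 for MRC1, −0.14 to 0.22 for AIF1, −0.14 to 0.46 for CD14, −0.34 to 0.43 for the brighter and −0.23 to 0.23 for the dimmer CD163 probe set, and −0.0057 to 0.40 for TYROBP. Between days 21 and 14 they were −0.37 to 0.38 for LAPTM5 and −0.12 to 0.31 for AIF1.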
